A study of Homo sapiens with 32 samples.

Results

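HA and SA cells carry point mutants of the same enzyme, ATP citrate lyase (ACLY), and were compared here without stimulation. HA is the H760A mutant, which lacks catalytic activity. SA is the S455A mutant, which cannot be phosphorylated at serine 455. Both lines were made from the same kind of THP-1 cell, a human monocytic leukaemia line, in which the endogenous ACLY had been knocked out (KO). The knockout cells were transduced with a lentiviral vector carrying the mutant coding sequence, which an EF promoter drives, and a puromycin resistance marker. WT cells received wild-type ACLY in the same way, and no source used here says if KO cells received a vector. The comparison took 8 of the 32 RNA libraries of the study, HA 1 to 4 and SA 1 to 4, all untreated. The other 24 libraries were WT and KO cells without stimulation and all 4 lines after 100 ng/ml lipopolysaccharide (LPS) for 3 h, 4 libraries each. Each genotype is represented by a single line in the labels, and its 4 libraries repeat that line. The p-values measure the spread between such repeats, pooled over all 32 libraries and not only over HA and SA. A difference between mutants cannot be told apart from any other difference between the lines. Of 60107 genes, 12327 had a mean normalised count of at least 10 over the 8 libraries and were tested.

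ACLY cleaves citrate in the cytosol to give acetyl-CoA and oxaloacetate. Acetyl-CoA is the building block of fatty acids and cholesterol and the acetyl donor for histones. Histidine 760 carries the phosphate in the catalytic cycle. Serine 455 is phosphorylated by AKT and protein kinase A, which raised the activity of the enzyme in some earlier studies and not in others. In these lines the study found ACLY activity reduced in HA and KO cells and intact in SA cells. It found serine 455 phosphorylation kept in HA cells and absent in SA cells. HA and SA therefore differ in both features at once, and the comparison does not separate them. Monocytes present antigen on MHC class II, respond to interferons and make the calcium-binding S100 proteins, and these genes are among those described below.

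Both mutated codons lie in the ACLY gene on chromosome 17 of GRCh38. They are shown because they are the only difference the labels give between the lines. Each line gives the reference coding sequence, 5′ to 3′ on the minus strand, with the codon that was changed to alanine in capitals. Codon 455 lies in exon 13 of 29 at chr17:41897801-41897827, and codon 760 in exon 21 at chr17:41878898-41878924.
Codon 455, serine (SA): agcaggacagcaTCTttttctgagtcc
Codon 760, histidine (HA): gtccagtttggcCATgctggagcttgt

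The normalised count of ACLY itself was 133, 81.4, 67.2 and 105 in HA and 162, 158, 149 and 102 in SA. The highest HA library stood above the lowest SA library, so the groups overlapped. The log2 difference HA minus SA was -0.58 (SE 0.283, limma adjusted p = 0.304). The mean was 102 ± 11.4 (SD, n = 4) in WT and 88.5 ± 17.5 in KO. The reads come from the 3′ end of the transcript and the counting does not say whether they stem from the vector or the edited locus, so the count does not check the labels.

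Between HA and SA, 187 genes differed at a limma adjusted p below 0.01, which is 1.52% of the genes tested. The number was 94 with the 8 libraries fitted alone, 123 without SA 3, 327 without SA_LPS 1 and 484 with library weights. Of the 187, 90 were higher in HA (0.73% of the genes tested) and 97 higher in SA (0.787%). The differences called ran from 0.49 upward on the log2 scale, with a median size of 1.21. A log2 difference above 1 was reached by 62 genes higher in HA and 63 higher in SA, and a difference above 3 by 6 and 8 genes. The HA and SA libraries did not overlap for 185 of the 187, and over all genes tested 11.2% had no overlap (6.16% with HA higher and 5.05% with SA higher). The exceptions were GNG4 and CHRNB1. The median difference of all genes tested was -0.03. On the scale as deposited, which was set separately for each line, the median moved by -0.11, and 68 genes were higher in HA and 157 higher in SA.

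**Figure D1:**
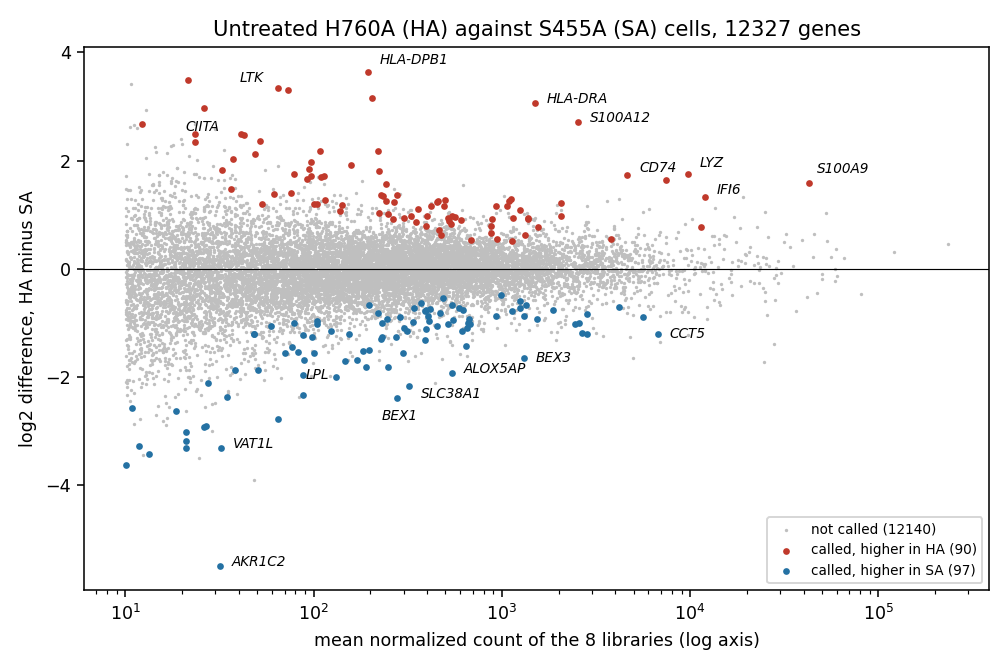
Log2 difference HA minus SA in untreated cells (y axis) against the mean normalised count of the 8 libraries (x axis, log scale), with 1 point for each of the 12327 genes tested and genes called at a limma adjusted p below 0.01 in colour. The 187 called genes fall on both sides of 0, and HLA-DRA, S100A12 and AKR1C2 are among those far from it.

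The genes that present antigen on MHC class II were higher in HA. The α and β chains of HLA-DR, -DP and -DQ form the molecules that show peptides to CD4 T cells, the invariant chain CD74 guides them to the endosome, HLA-DM loads the peptide, and CIITA is the coactivator that switches the group on. Of 17 genes in the list 15 were tested, and 9 rose in HA and none fell. The 9 are 60.0% of those tested, against 0.73% of all genes tested. All 15 had a positive difference, with a median of 1.66, against -0.03 over all genes tested. The HA libraries lay above the SA libraries without overlap for 11, against 6.16% of all genes tested. Leaving out 1 library at a time gave 8 to 11 members called.

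HLA-DRA, the α chain of HLA-DR (chr6:32439878-32445046, plus strand), had a normalised count of 1926, 2436, 2397 and 3967 in HA and 204, 393, 303 and 382 in SA. Every HA library exceeded every SA library, and the lowest HA value was several times the highest SA value. The log2 difference was 3.06 (SE 0.296, limma adjusted p = 9.72e-08). The count of HLA-DPB1 was 263, 326, 369 and 471 in HA and 15.6, 27.7, 44.4 and 28.3 in SA, with a difference of 3.64 (SE 0.249, limma adjusted p = 5.18e-11). Its partner chain HLA-DPA1 stood at 281, 398, 344 and 438 in HA and 29.4, 50.9, 47.7 and 33.9 in SA, with a difference of 3.16 (SE 0.202). Both HLA-DP chains were separated between the lines in all libraries.

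CD74 had counts of 6877, 7165, 6777 and 7643 in HA and 2436, 2060, 1755 and 2421 in SA. Its log2 difference was 1.73 (SE 0.192, limma adjusted p = 1.2e-06). The CIITA count was 82.3, 65.4, 84.9 and 59.0 in HA and 14.4, 10.7, 9.86 and 14.1 in SA, and the difference was 2.48 (SE 0.432, limma adjusted p = 0.000632). The coactivator and the invariant chain thus showed the same separation as the HLA chains. HLA-DMA stood at 162, 139.7, 99.0 and 161 in HA and 43.1, 35.7, 39.5 and 55.6 in SA (difference 1.66, limma adjusted p = 0.000274). HLA-DMB had a difference of 2.31 and HLA-DQB1 of 1.48, neither past the limit (limma adjusted p = 0.0137 and 0.0814).

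The remaining chains called were HLA-DQA1, HLA-DRB1 and HLA-DRB5. HLA-DQA1 was nearly unread in SA, at 18.3, 25.5, 55.4 and 61.7 in HA and 0, 4.46, 3.29 and 3.77 in SA (difference 3.50, limma adjusted p = 0.00262), and its call was lost without HA 3, HA 4 or SA 1. HLA-DRB1 was the most abundant, at 12850, 11450, 7971 and 12180 in HA and 4983, 2947, 2128 and 4721 in SA (difference 1.65, limma adjusted p = 0.00174), and lost its call without SA 3. HLA-DRB5 stood at 584, 592, 657 and 1009 in HA and 271, 272, 255 and 364 in SA (difference 1.26). The HLA chains resemble each other, so reads may be divided between them. The regulatory factors that bind the promoters of these genes showed small differences, 0.39 for RFX5, 0.04 for RFXAP and 0.03 for RFXANK (limma adjusted p = 0.427, 0.956 and 0.942). The protease CTSS, which trims the invariant chain, differed by 0.11.

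**Figure D2:**
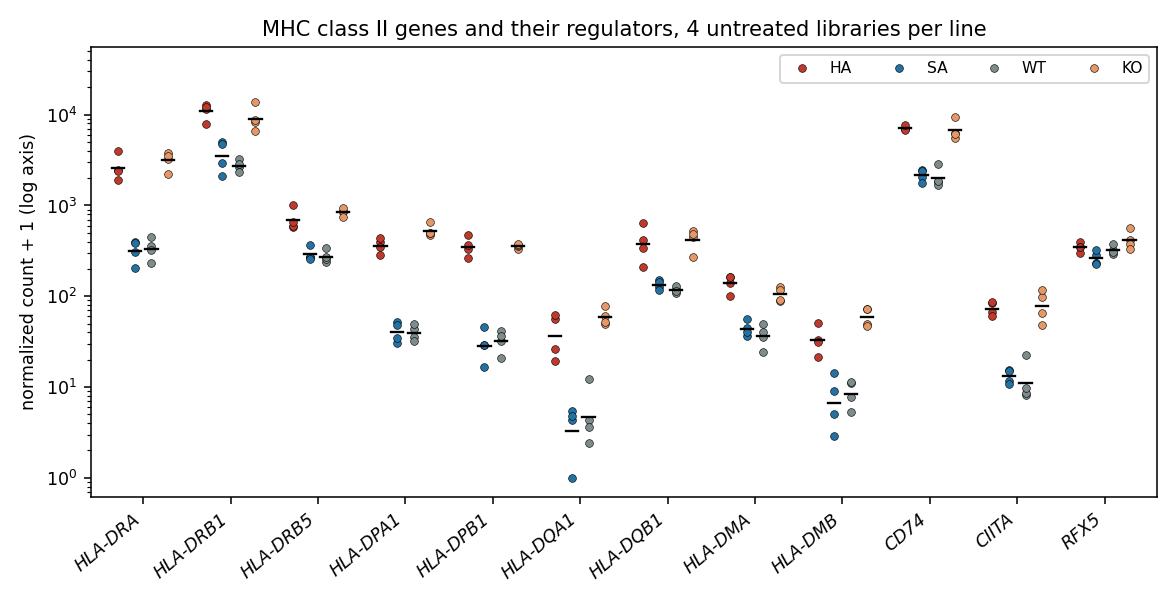
Normalised count + 1 (log axis) of class II genes in each untreated library of HA, SA, WT and KO. Each point is 1 library and each bar is the geometric mean of 4. HLA-DRA lay at 1926 to 3967 in HA and at 204 to 393 in SA.

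Class II promoters hold a spaced pair of boxes, the X2 and Y boxes, known to bind the factors with which CIITA works. A search of RefSeq promoters of GRCh38.p14 (250 bases before to 50 after the start) for GATGA followed after 21 or 22 letters by ATTGG, on both strands, found this pair in 3 of the 63 promoters of genes higher in HA. It was in 0 of the 79 promoters of genes higher in SA and in 9 of the 9117 of all genes tested (0.1%). The 3 were HLA-DMA, HLA-DRB1 and HLA-DRB5, and the search found the pair in no other called class II gene. HLA-DRA and CIITA had no promoter in the set searched. The letters and the spacing were chosen after the sequences had been seen. The stretches are shown for the 3 called genes and for HLA-DQB1, 5′ to 3′ on the minus strand with the letters searched for in capitals.
HLA-DRB1, chr6:32589882-32589928: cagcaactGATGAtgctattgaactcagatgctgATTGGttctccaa
HLA-DRB5, chr6:32530365-32530411: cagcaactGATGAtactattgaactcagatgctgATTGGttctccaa
HLA-DQB1, chr6:32666733-32666779: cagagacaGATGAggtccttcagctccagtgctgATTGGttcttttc
HLA-DMA, chr6:32953164-32953211: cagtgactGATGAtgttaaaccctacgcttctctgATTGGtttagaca
A match is a description of the letters and binding was not measured here.

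S100A12, a calcium-binding protein that monocytes and neutrophils secrete, had the smallest p of all genes tested. The gene lies at chr1:153373711-153375621 on the minus strand, and its normalised count was 4015, 4414, 4130 and 5131 in HA and 716, 689, 588 and 712 in SA. All 4 HA libraries stood well above all 4 SA libraries. The log2 difference was 2.71 (SE 0.116, limma adjusted p = 8.45e-16). In the list of S100 and granule genes 3 of 21 members rose (14.3%, against 0.73% of all genes tested) and none fell. The list had a median of 0.63 and 17 positive differences. The other members called were S100A9 and the lysozyme gene LYZ. The lowest difference in the list was -2.55, in a member that was not called. Of 10 markers of neutrophils or granulocyte precursors, 5 were tested (CSF3R, AZU1, CXCR2, PRTN3 and ELANE) and 0 called. Their median difference was 0.50 with 4 of 5 positive, and the list's summed count was 8020 to 10590 in HA and 4748 to 8002 in SA, without overlap. The markers LTF, MMP8, CEACAM8 and FCGR3B were at 0 in all 8 libraries. The part of these markers in the S100 and granule values was not tested.

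S100A9, a subunit of calprotectin, had counts of 87890, 68900, 46440 and 55650 in HA and 26100, 18620, 16070 and 24270 in SA (difference 1.59, limma adjusted p = 0.00788). The HA values were all higher, although the call was lost in 7 of the 8 fits that left out 1 library. S100A8, the other calprotectin subunit, differed by 1.05 with no overlap and did not pass the limit (limma adjusted p = 0.0935). LYZ stood at 10660, 13950, 18930 and 16240 in HA and 3365, 4794, 6413 and 3496 in SA (difference 1.75, limma adjusted p = 0.00206), and its call was lost without HA 3, SA 1 or SA 4.

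Interferon-stimulated genes rose in part. These genes are induced by type I or type II interferon and act against viruses. Of 83 in the list 78 were tested, and 7 rose (8.97%, against 0.73% of all genes tested) and none fell. A positive difference was found for 71 of the 78, and the list had a median of 0.58. No overlap with HA higher was found for 29, against 6.16% of all genes tested. The mean log2 level over the tested members was 8.87 ± 0.29 (SD, n = 4) in HA and 8.27 ± 0.06 in SA, with HA libraries at 8.607 to 9.289 and SA libraries at 8.199 to 8.342. The number called depended on the libraries in the fit: it was 3 in a fit of the 8 libraries alone, 13 without HA 4 and 14 without SA_LPS 1.

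IFIT1, which binds viral RNA, had counts of 439, 344, 374 and 238 in HA and 25.01, 87.5, 100.3 and 141 in SA. The lowest HA library stood above the highest SA library, and SA 1 was the lowest of all. The log2 difference was 2.17 (SE 0.323, limma adjusted p = 7.42e-05). IFI6, an inhibitor of cell death and viral replication, stood at 17120, 18810, 14740 and 17010 in HA and 8684, 6814, 4607 and 7628 in SA (difference 1.32, limma adjusted p = 4.63e-05). IFI44L stood at 1994, 1297, 1443 and 1192 in HA and 598, 558, 763 and 685 in SA (difference 1.17, limma adjusted p = 0.000661). TNFSF10, the death ligand TRAIL, stood at 411, 337, 426 and 323 in HA and 118, 187, 189 and 151 in SA (difference 1.23, limma adjusted p = 0.000247). In these 3 genes, too, HA and SA libraries did not overlap.

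The remaining genes called were GBP2, a guanylate-binding protein (0.94), and the viral RNA sensors OAS1 (0.94) and OAS2 (1.08). The calls of OAS1 and OAS2 were lost without HA 1, and that of OAS2 also without SA 3. Several members missed the limit. These included ISG15 at 1.18 (limma adjusted p = 0.013), MX1 at 1.25 (0.0107) and GBP1 at 1.12 (0.0294). The chemokine CXCL10, a member of the list of inflammatory genes, was at 1.31 (limma adjusted p = 0.0932). In the list of interferon signalling genes 0 of 23 were called, with a median of 0.20. JAK2, a kinase of the interferon receptors, was at 0.71 (limma adjusted p = 0.0115).

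The letters GAAA, any 2 letters and GAAA again form the core of the element that interferon-activated factors are known to bind. This pattern, searched on both strands, stood in the promoters of 5 of 63 genes higher in HA (7.94%), of 1 of 79 higher in SA (1.27%) and of 263 of the 9117 genes tested (2.88%). The 5 were AIM2, IFI44L, IFI6, IFIT1 and TNFSF10. GBP2, OAS1 and OAS2, the other called members of the interferon list, were not among the 5, for want of a match or of a promoter in the set. For those of the 5 that belong to the interferon list, the stretch is given 5′ to 3′ with the searched letters in capitals.
IFIT1, chr10:89392512-89392537, minus strand: aacctaggGAAAccGAAAggggaaag
IFI6, chr1:27672331-27672356, minus strand: agagagggGAAAatGAAActctgcag
IFI44L, chr1:78620276-78620301, plus strand: ctagtgagGAAAaaGAAAgttagtgg
TNFSF10, chr3:172523600-172523625, plus strand: aaaggaggGAAActGAAAgaagctcc

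Outside these lists, large rises were seen in genes of varied function. LTK, a receptor tyrosine kinase, had counts of 113, 121, 84.9 and 144 in HA and 1.88, 25, 10.7 and 17.9 in SA, with a log2 difference of 3.34 (SE 0.538, limma adjusted p = 0.000238). CLSTN2, a calsyntenin of neuronal synapses, had 140.3, 141, 146 and 102 in HA and 7.50, 26.8, 14.8 and 7.54 in SA (difference 3.30, SE 0.378). CAV1, the main protein of caveolae, had 86.4, 75.02, 88.4 and 93.4 in HA and 6.88, 30.4, 22.2 and 13.2 in SA (difference 2.36, SE 0.290). None of the 3 genes overlapped between lines. The apolipoprotein gene APOC1 stood at 325, 336, 318 and 389 in HA and 100.0, 65.2, 105 and 129 in SA (difference 1.80, limma adjusted p = 0.000238), and it was the only called member of the 10 tested cholesterol efflux genes that answer to LXR. That list had a median of 0.12 with 6 of 10 positive. Its member ABCA1 was not called but was lower in HA, at -2.18 to -1.57 over the 24 fits run. Differences of 2.03 in SLAMF7, 1.92 in the receptor AXL, 1.83 in the DNA sensor AIM2, 2.49 in SPOCK2, 2.18 in GLT1D1 and 1.26 in the TGF-β effector SMAD3 were called as well. Of the 8 fits that left out 1 HA or SA library, AIM2 lost its call in 7 and AXL in 2.

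AKR1C2, an aldo-keto reductase that reduces steroids, was among the genes that fell furthest. Its normalised count was 0, 0.798, 1.18 and 0 in HA and 64.4, 68.8, 46.9 and 71.7 in SA. The HA libraries held 2 reads of the gene in all and the SA libraries 313, a ratio of SA to HA of 132 with an exact 95% interval of 36.3 to 1096 that covers counting error only. The fitted difference was -5.49 (SE 0.697, limma adjusted p = 8.94e-06), and its size depends on the pseudocount. AKR1C genes are close copies of each other, so their reads can be divided. It was the only member called of 18 NRF2 target and aldo-keto reductase genes.

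BEX1, an adaptor protein expressed mainly in neurons, had counts of 51.9, 105, 116 and 89.9 in HA and 514, 540.2, 372 and 436 in SA. All HA libraries were below all SA libraries, and the difference was -2.40 (SE 0.212, limma adjusted p = 1.53e-08). Its relative BEX3 had a difference of -1.65 (limma adjusted p = 0.00598) and BEX4 one of 0.40 (0.817). BEX3 lost its call in 6 of the 8 fits that left out 1 library, and BEX genes resemble each other in sequence.

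SLC38A1, a transporter that takes up glutamine, had counts of 130.1, 152, 74.3 and 114 in HA and 463, 554, 691 and 399.8 in SA (difference -2.17, SE 0.249, limma adjusted p = 1.56e-06). It was the only called member of 22 ATF4 target genes, whose median was -0.30. LPL, the lipase that frees fatty acids from lipoproteins, stood at 60.0, 57.5, 77.8 and 76.7 in HA and 234, 240.2, 217 and 203 in SA (difference -1.71, limma adjusted p = 2.66e-06). ALOX5AP, needed for leukotriene synthesis, stood at 157, 196, 242 and 319.8 in HA and 818, 996, 706 and 896 in SA (difference -1.94, limma adjusted p = 6.2e-05). In each of these genes the SA libraries lay above the HA libraries.

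NPTX1, a neuronal pentraxin, stood at 8.13, 29.5, 57.8 and 37.9 in HA and 136, 142, 170.1 and 123 in SA (difference -2.34) and VAT1L at 2.03, 4.79, 7.07 and 7.93 in HA and 53.1, 68.8, 60.8 and 52.8 in SA (difference -3.32). Further called falls were -2.78 in melanophilin (MLPH), -2.38 in ZNF462, -2.0 in GAPT, -1.97 in the RNA-binding protein MSI2, -1.87 in CABLES1, -1.87 in SOBP and -1.44 in the transcription factor FOXO1. NCAM1, a cell adhesion molecule, was read in 1 HA library only, at 0, 0, 4.71 and 0 in HA and 28.1, 17.9, 16.4 and 13.2 in SA (difference -3.64, limma adjusted p = 0.00048). The synaptic vesicle protein gene SV2A had a difference of -3.42 (limma adjusted p = 0.00608), and its call was lost in 7 of the 8 fits that left out 1 library.

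**Figure D3:**
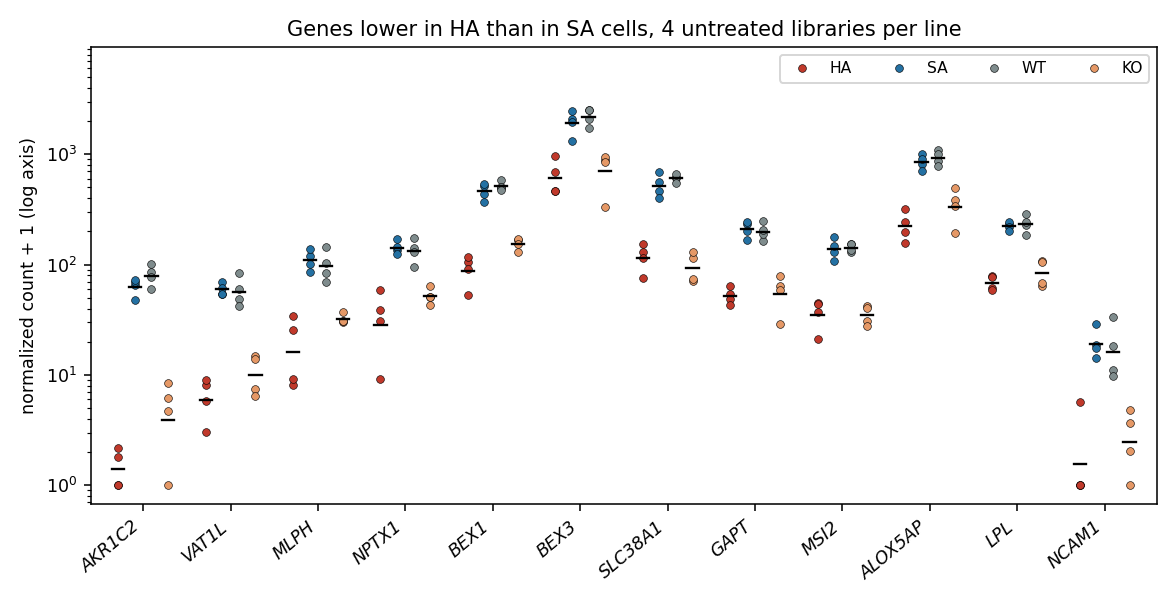
Normalised count + 1 (log axis) of genes lower in HA than in SA, in each untreated library of HA, SA, WT and KO. Each point is 1 library and each bar is the geometric mean of 4. AKR1C2 was at 0 in 2 of the HA libraries and SLC38A1 stood at 74.3 to 152 in HA.

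A part of the falls came from 1 stretch of the genome, which was noticed after the values had been seen. In the first 50 Mb of chromosome 5, 97 genes were tested, 0.79% of all. Of these 25 were lower in HA and none higher, so 25.8% were called against 1.32% of the genes elsewhere. These 25 made up 25.8% of all genes called higher in SA. The median difference of the 97 was -0.93 (quartiles -1.26 and -0.66), and 95 of them had a negative difference. The exceptions were TRIO and ANKH. The HA and SA libraries did not overlap for 65, all with SA higher, against 5.05% of all genes tested. Over the 454 tested genes of the rest of the chromosome the median was -0.03.

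The genome was also cut into windows of 10 Mb. In 234 windows with at least 20 genes tested, the 3 in this stretch had medians of -1.02, -0.78 and -1.04, and the others ran from -0.41 to 0.30. The mean log2 level of the 97 genes, relative to all other genes, was -0.568 to -0.362 in the HA libraries and 0.444 to 0.665 in the SA libraries. It was 0.514 to 0.640 in WT and -0.450 to -0.198 in KO. All 16 libraries of HA and KO cells, with or without LPS, were below all 16 of SA and WT cells. The copy number of the DNA was not measured, and its part in these values was not tested.

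The genes called there have unrelated functions. CCT5, a subunit of the chaperonin that folds actin and tubulin, had counts of 4120, 4016, 4343 and 3802 in HA and 8813, 9792, 9626 and 9393 in SA. The HA libraries lay close together and far below every SA library, and the difference was -1.21 (SE 0.093, limma adjusted p = 6.35e-10). OXCT1, which lets mitochondria use ketone bodies, stood at 102, 57.5, 100.2 and 74.0 in HA and 200, 338, 389 and 256 in SA (difference -1.81, limma adjusted p = 2.69e-06). IL7R, a receptor chain for interleukin 7, had a larger difference of -3.31 (SE 0.436, limma adjusted p = 1.55e-05). NUP155, a nuclear pore protein, was at -1.11, the microRNA-processing enzyme DROSHA at -0.73 and the ribosome assembly factor BRIX1 at -1.01. Of the 8 fits that left out 1 HA or SA library, DROSHA lost its call in 4, BRIX1 in 5 and TRIP13 in all 8. Of the 187 genes called, 162 lay elsewhere. With p adjusted again over the genes elsewhere alone, 152 genes were called, of which 54.6% were higher in HA.

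**Figure D4:**
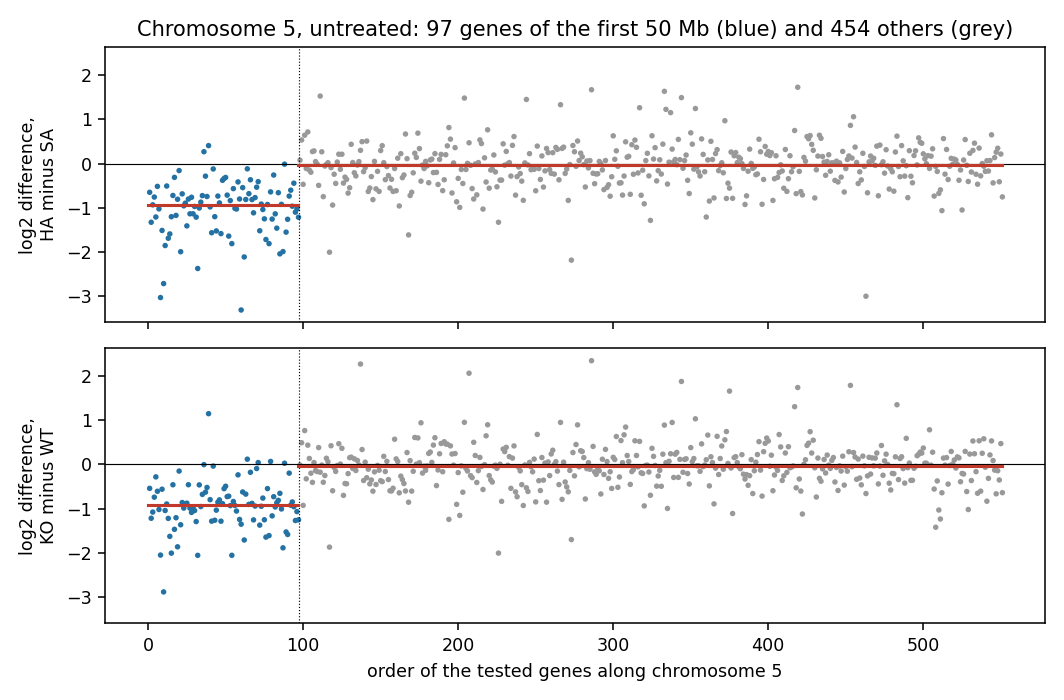
Log2 difference of each tested gene of chromosome 5, in the order of the genes along the chromosome (x axis, rank), for HA minus SA and for KO minus WT in untreated cells. The red lines are medians of the first 50 Mb and of the rest, which for HA minus SA stand at -0.93 and -0.03.

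Genes of the pathways next to the enzyme showed few calls. Acetyl-CoA made by ACLY feeds cholesterol and fatty acid synthesis, and the cell can also make it from acetate through ACSS2. Of 23 cholesterol synthesis genes 0 were called, 22 had a positive difference and the median was 0.57. The exception was HMGCS1, at -0.01, which lies in the first 50 Mb of chromosome 5. The list's mean log2 level was 9.21 ± 0.20 (SD, n = 4) in HA and 8.63 ± 0.21 in SA. HA libraries lay at 9.025 to 9.48 and SA libraries at 8.356 to 8.834. For 8 of the 23 genes HA was higher without overlap, against 6.16% of all genes tested. LSS was at 0.84 and SQLE at 0.76 (limma adjusted p = 0.0406 and 0.0502). After LPS 2 members were called higher in HA, and the median was 0.66.

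Of 17 fatty acid synthesis genes 0 were called, with a median of -0.10. FASN, the fatty acid synthase, differed by 0.05 and ACSS2 by 0.63 (limma adjusted p = 0.927 and 0.283). Of 38 acetyl-CoA and citrate metabolism genes 0 were called (median -0.20), with PDHA1 of pyruvate dehydrogenase at -0.42 and the malic enzyme ME1 at -0.64 (limma adjusted p = 0.0308 and 0.0792). Of 34 genes of histone acetylation 0 were called (median 0.11), with HDAC6 at 1.00 (0.0133). The same held for 23 glycolysis genes (median 0.06), 40 respiratory chain genes (-0.22), 48 cell cycle genes (-0.10) and 16 immediate early genes (0.05). The medians for histone acetylation, glycolysis and the immediate early genes changed sign on the deposited scale. Of 27 tested inflammatory genes 0 were called (median 0.47). TNF was at 0.56 and CCL3 at 1.62 (limma adjusted p = 0.0311 and 0.0309). The members of this list ran from -1.57 to 1.62, with 18 of 27 positive, and IL6 was at 0 in all HA and SA libraries. Of 19 MHC class I genes HLA-E was called, at 0.54 (limma adjusted p = 0.00104).

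**Figure D5:**
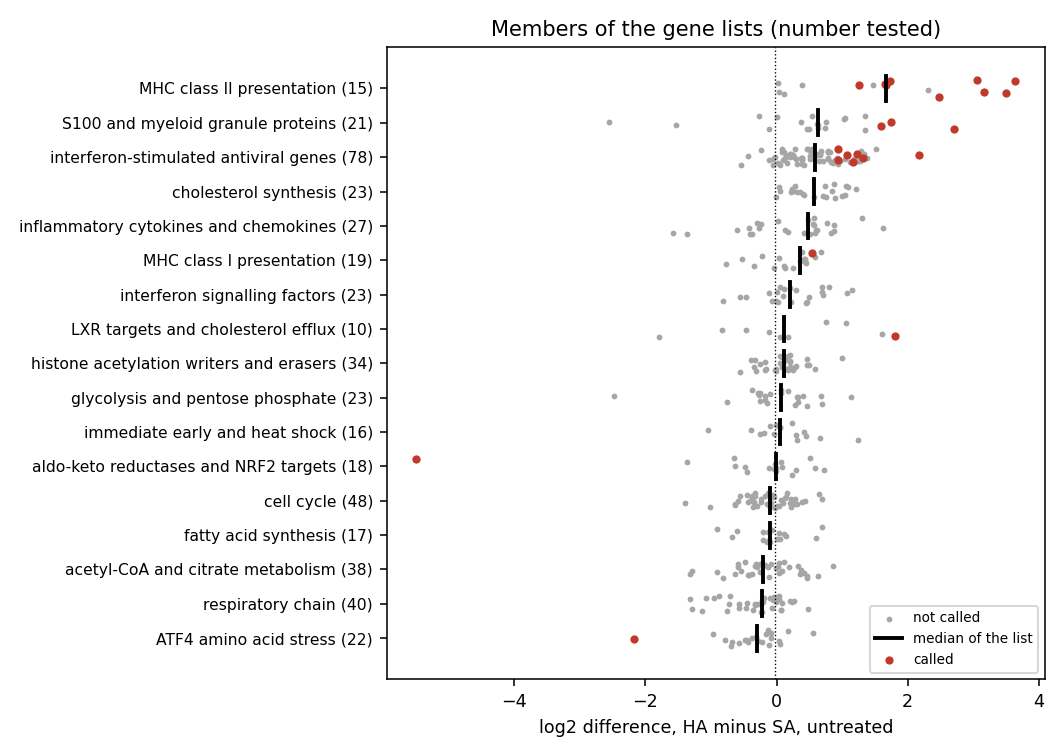
Log2 difference HA minus SA in untreated cells (x axis) for the tested members of each gene list (rows). Each point is 1 gene, genes called at a limma adjusted p below 0.01 are in colour, and the dotted line is the median of all genes tested, -0.03. The class II list lies furthest to the right, with a median of 1.66.

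After LPS, the 4 HA and 4 SA libraries gave 255 genes called, 2.07% of those tested (1.09% higher in HA and 0.982% higher in SA). Of the 187 genes called without LPS, 123 were called in the same direction after it, 60 higher in HA and 63 higher in SA, and 0 in the opposite direction. These were 65.8% of the first set and 48.2% of the second. All 187 had the same sign after LPS, against 68.1% of all genes tested. HLA-DRA then stood at 2701, 2872, 2679 and 4181 in HA and 161, 317, 488 and 510.4 in SA (difference 3.18, limma adjusted p = 3.92e-08) and S100A12 at 4678, 3576, 4339 and 4736 in HA and 619.9, 550.2, 613 and 624 in SA (difference 2.84). The class II median was 1.86 and the median of the first 50 Mb of chromosome 5 was -0.85. The interferon list had 3 members called and a median of 0.26, and IFIT1 differed by 0.50 (limma adjusted p = 0.412).

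Whether LPS changed the difference between the mutants was tested gene by gene as an interaction. In limma, 0 genes passed at an adjusted p that was nowhere below 0.978, and 385 genes had p below 0.05 before adjustment. A voom (limma) fit of the recovered reads also called 0. The count after LPS depends strongly on the fit. It was 10 when the 8 LPS libraries were fitted alone, 279 without SA_LPS 1, a library far from its group, and 154 without HA_LPS 1. With the replicate number as a block it was 1 in those 8 libraries alone and 324 in all 32.

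KO cells minus WT cells shares no library with HA minus SA and also sets a line without active enzyme against one with it. It gave 360 genes called, 2.92% of those tested (1.78% higher and 1.14% lower in KO). Among the 187 genes called in HA minus SA, 117 were called in the same direction, 57 higher and 60 lower, and 0 in the opposite one. These were 62.6% of the 187 and 32.5% of the 360, and 92 genes were called in all 3 comparisons. The same sign was found for 185 of the 187, against 71.8% of all genes tested, and the exceptions were SPOCK2 and AC019069.1. Leaving out the first 50 Mb of chromosome 5, where 28 genes were called lower in KO, 97 genes were shared. These were 59.9% of the 162 genes and 29.2% of the 332 genes called elsewhere with p adjusted over all genes tested.

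The class II median was 1.74 in KO minus WT, and HLA-DRA differed by 3.24, CIITA by 2.80 and CD74 by 1.74. S100A12 differed by 2.38, BEX1 by -1.73, AKR1C2 by -4.34 and SLC38A1 by -2.70. The interferon list had 54 of 78 members called, with a median of 1.58, against 7 called and 0.58 in HA minus SA. HA minus SA less KO minus WT was positive in 1 of the 78, with a median of -0.996. A test of the difference between the comparisons called 3 genes (0.0243%), all with a larger value in KO minus WT. With the replicate number as a block it called 13, and without SA_LPS 1 it called 10. The 3 genes were GBP1 (1.12 and 4.16), IFI44L (1.17 and 3.16) and CD14, the LPS co-receptor (-0.55 and 1.66), with limma adjusted p = 0.000869, 0.00104 and 0.0059. The call of CD14 was lost in 10 fits that left out 1 library: HA 3 or 4, SA 2 or 3, WT 1, 2 or 4, or KO 1, 2 or 4. That of GBP1 was lost in the voom fit. LTK differed by 0.77 in KO minus WT (limma adjusted p = 0.622) and SPOCK2 by -0.04 (0.984).

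Set beside WT, with which both comparisons share their HA or SA libraries, 314 genes were called in HA (2.55%) and 0 in SA. For SA minus WT, limma gave 455 genes with p below 0.05 before adjustment and no adjusted p under 0.999, and voom (limma) also called 0. HLA-DRA had a mean of 2681 ± 888 (SD, n = 4) in HA, 320.2 ± 87.5 in SA, 339 ± 89.7 in WT and 3188 ± 671 in KO. S100A12 had 4422 ± 502, 676 ± 60.1, 709 ± 85.5 and 3690 ± 464. In both genes the order of means was not resolved between SA and WT, whose difference was -0.09 in HLA-DRA and -0.07 in S100A12. The first 50 Mb of chromosome 5 had a median of -1.03 in HA minus WT and -0.05 in SA minus WT. The interferon list was higher in SA than in WT, with 63 of 78 members positive, a median of 0.285 and 0 called. Its mean log2 level was 8.199 to 8.342 in the SA libraries and 7.903 to 8.158 in WT. After LPS it was 9.089 to 9.263 in SA and 8.691 to 8.739 in WT.

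Between 8188012 and 12324297 reads were counted on genes in the HA libraries and 10788639 to 14724448 in the SA libraries. Other measures of the libraries moved with the line, and their part in the differences was not tested. Mitochondrial transcripts took 6.08 to 8.11% of reads in HA and 3.81 to 6.13% in SA, and ribosomal protein genes 9.08 to 12.6% and 12.1 to 14.8%. The nuclear RNA NEAT1 differed by -1.15 (limma adjusted p = 0.0189) without overlap. Of 20 monocyte markers 19 were tested. Their summed count was 31540 to 39280 in HA and 21530 to 22810 in SA, and LYZ, which makes up much of it, was the only marker called. Their mean log2 level was 8.98 ± 0.08 (SD, n = 4) in HA and 8.95 ± 0.05 in SA, with a median difference of 0.13 and 11 of 19 positive. Of 9 T or NK cell markers 6 were at 0 in all 8 libraries, CD3E among them, and NKG7 was the only one tested, with a difference of 0.27 (limma adjusted p = 0.629). None of the erythroid or epithelial markers had enough reads to be tested, and 5 of 9 and 5 of 10 were at 0, HBB and KRT19 among them. In bulk RNA, fewer cells of a kind and less RNA per cell cannot be told apart.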

How the data were processed

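Total RNA of THP-1 cells was sequenced with the QuantSeq 3′ FWD kit. Trimming by the authors was done in Bbduk, alignment to GRCh38 in STAR, counting per gene in HTSeq-count and analysis in DESeq2 (versions not given in the sources used here). The deposited values are normalised counts, scaled separately for each line by the authors. As 100% of values were whole multiples of 1 number per library (tolerance 0.05 reads), reads were recovered and rescaled with median-of-ratios factors over all 32 libraries and 11489 genes, which assumes that the typical gene did not differ. The tables' 92 spike-in rows were left out.

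Genes with a mean of at least 10 were fitted with limma 3.58.1 (R 4.3.3) on log2(normalised count + 1), with 1 mean for each of the 8 groups and a trend, because the deposited values were not raw counts. This scale understates differences of low genes. Benjamini-Hochberg adjustment ran over the 12327 genes, and genes were called at an adjusted p below 0.01. Libraries had 6504099 to 14750815 reads. Reads are not independent molecules. The replicate numbers of KO and WT paired in part (correlations of deviations from the group means 0.331 to 0.671, from the data only), with WT 1 closest to KO 2. For untreated HA and SA the correlations were -0.186 to 0.329, and only HA 1 and HA 3 correlated best with their own number. After LPS the HA and SA correlations were 0.03 to 0.515, and each HA_LPS library correlated best with its own number. The fit did not use the numbers as pairs. The genes of the comparison, the 17 lists and 7 marker lists, well-known members written by hand, were chosen with earlier results of these data known. Named genes were ACLY, genes the study names, the 12 largest rises and 12 largest falls without overlap and with a mean of at least 50 in the higher group, the 5 with the highest counts, and up to 4 called members of each list, or 2 with the smallest p where none was called. BEX3, BEX4, CD14, GNG4, CHRNB1, NCAM1 and genes of chromosome 5 were among those named after their values were seen. Positions are those of GENCODE 44. Some items are not reported here.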

Additional observations from a re-analysis of the deposited data

Results flagged for a closer look

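In 11 of 262 sets of 4 libraries, 1 library stood apart from the other 3 by a gap past Dixon's limit for 4 values, taken as a share of the whole range. Chance alone flags about 1 in 20 sets. In HA, 1 library had a normalised count of 102 for CLSTN2 (others 140.3 to 146), 31.9 for FOXO1 (others 42.4 to 44.1), 4.71 for NCAM1 (others 0), 128 for SPOCK2 (others 46.8 to 57.8) and 70.1 for TRPM8 (others 36.5 to 41.5). In SA, 1 library stood at 328 for EPSTI1 (others 211 to 227), 26.3 for GBP1 (others 49.3 to 53.7) and 364 for HLA-DRB5 (others 255 to 272). The mean log2 level of the fatty acid synthesis list was 9.08 in 1 SA library (others 8.96 to 8.97), and that of the LXR list was 5.96 in 1 SA library (others 6.31 to 6.34). An SA library had 14724448 reads (others 10788639 to 11070456). The calls of CLSTN2, FOXO1, HLA-DRB5, NCAM1 and SPOCK2 were kept with each HA or SA library left out in turn. The call of TRPM8 was lost without HA 1, SA 1 or SA 3.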

How the results depend on the processing

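The number of genes called between HA and SA was 94 when the 8 libraries were fitted alone, with the joint or with TMM factors, and 95 with median-of-ratios factors of those 8. It was 484 with library weights and 123 (without SA 3) to 327 (without SA_LPS 1) with 1 library left out. After LPS it was 10 with the 8 libraries alone, with either the joint or their own median-of-ratios factors, 100 with 16 libraries, 1248 with weights and 154 to 279 with 1 library left out. HA minus WT gave 506 on the deposited scale and 188 to 556 with 1 library left out, and the difference between HA minus SA and KO minus WT gave 2 to 10. Interferon genes called were 3 with the 8 libraries alone under each scaling, 20 with weights and 5 to 14 with 1 library left out. The cause was not tested, except that fewer libraries enter the smaller fits.

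The replicate numbers pair untreated HA and SA at most in part, with correlations of deviations of 0.329, -0.186, 0.283 and -0.097. HA 1 and HA 3 correlated best with their own number, and HA 2 and HA 4 did not. After LPS the correlations were 0.515, 0.362, 0.03 and 0.498, and each HA_LPS library correlated best with its own number, a hint from the data and not from the design. With the replicate block, 253 genes were called in the 8 libraries alone and 241 in all 32. The block gave 12 and 15 interferon genes, 1 gene after LPS in the 8 libraries alone and 324 in all 32, and 13 genes for the difference between HA minus SA and KO minus WT.

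Of 2575 values of named genes under the alternatives, 2298 kept direction and side of the limit, 210 lost the call, 67 gained it and 0 reversed. Of 63 named genes called, 42 kept the call with each HA or SA library left out. Members called among class II genes stayed within 7 to 11 under the alternatives run. The planned count tests with edgeR and DESeq2 were not run, and voom (limma) on the recovered reads gave 222 genes between HA and SA. This test, leaving out the first 50 Mb of chromosome 5 and leaving out SA_LPS 1 were chosen after seeing the data, as were the alternatives for HA minus WT and for the difference from KO minus WT. Genes near a mean of 10 are limited by counting error.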
